A study of Rattus norvegicus with 32 samples.

Results

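Intestinal mucosa of obese and lean Zucker rats was compared after 30 days of placebo. The obese animals were Zucker-Leprfa/fa (ZO) rats, in which both copies of the leptin receptor gene carry the fa allele, and the lean animals were Zucker lean Lepr+/fa (ZL) rats, which carry it on 1 copy. All were male and received the same daily placebo, which the study describes as a mix of milk powder, sucrose and vitamin C. The arrays were chosen by their labels and not by any measured value: 4 labelled obese placebo and 4 labelled control placebo, 8 of the 32 arrays of the series. Each array held the RNA of 1 rat, numbered Z11, Z13, Z15 and Z16 in the ZO group and C11, C13, C15 and C16 in the ZL group. A further 8 arrays, of 4 ZL and 4 ZO rats taken as a reference before the intervention (baseline), served to show whether a difference was already there. The remaining 16 arrays were of ZO rats given a probiotic, which in the study was a single strain or a mixture of strains. They were fitted as 1 group and entered only the estimate of the spread within groups. The labels give all rats the same age, which cannot hold for rats separated by the intervention, so age was not used. The ZL controls are carriers, so the comparison is of obese homozygotes with lean carriers and not with rats free of the allele.

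The absorptive cells of the intestinal lining take up fatty acids from the diet and either package them into chylomicrons or burn them. Burning takes place in mitochondria, where the carnitine shuttle carries long-chain acyl groups inward and a cycle of dehydrogenases, hydratases and thiolases shortens them, and in peroxisomes, which shorten very long chains. PPAR alpha, encoded by *Ppara*, is a nuclear receptor that fatty acids activate and that is known to switch on genes of both pathways in rodent liver and gut. Leptin, the fat cell hormone whose receptor the fa allele damages, is best known for limiting food intake through the brain.

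Signals are given on a log2 scale, on which a difference of 1 is a doubling, and each value belongs to 1 probe set, the group of short probes that reads a transcript on the Affymetrix Rat Gene 1.1 ST array. The array medians of the 8 rats ran from 4.866 to 4.935, and the correlation between any pair of the 8 arrays, across probe sets, was between 0.9855 and 0.9966. The labels call the tissue intestinal mucosa and name no segment. Markers of absorptive cells were high in all 8 rats, with *Fabp2*, the intestinal fatty acid-binding protein, between 13.23 and 13.40 and villin (*Vil1*) between 12.21 and 12.39. *Prss1*, the trypsinogen of pancreatic acinar cells, was between 2.77 and 3.08.

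The lean rat C13 stood apart in genes that mark the position along the gut. *Fabp6*, the bile acid-binding protein of the ileum, was 8.71 in C13 and between 13.14 and 13.36 in the other 7 rats. *Slc10a2*, the ileal bile acid importer, was 7.01 in C13 and between 10.52 and 11.69 in the other rats. The enteroendocrine hormone gene *Pyy* was 5.17 in C13 and between 8.99 and 9.78 elsewhere. C13 was thus far below the others in each of these genes. The mean over the 9 measured genes of ileal bile acid handling was 7.88 in C13, between 10.05 and 10.12 in the other ZL rats and between 9.43 and 10.09 in the ZO rats. C13 was kept under its label, and the calls that ended without C13 are marked as such.

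**Figure D1:**
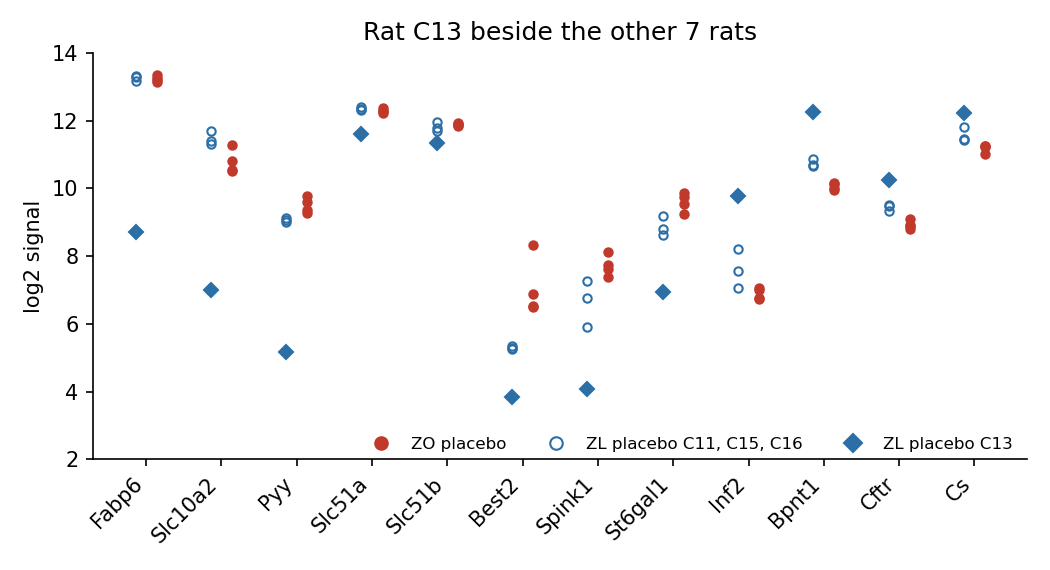
Log2 signal (y axis) of 12 genes (x axis) in each of the 8 placebo rats, with ZO rats as filled circles, ZL rats C11, C15 and C16 as open circles and ZL rat C13 as a diamond. C13 lies far below the others for *Fabp6* (8.71), *Slc10a2* (7.01) and *Pyy* (5.17), and it is the lowest or highest rat for *Best2*, *Spink1*, *St6gal1*, *Inf2*, *Bpnt1*, *Cftr* and *Cs*.

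Another lean rat, C16, stood apart in *Duoxa2*, a gene of the epithelial oxidases. *Duoxa2*, which matures a peroxide-producing oxidase of the gut surface, was 12.33 in C16, between 6.50 and 7.55 in the other ZL rats and between 5.97 and 6.91 in the ZO rats. The *Duoxa2* value of C16 was among those whose decimal point could have been placed differently, as described with the processing. The mean over the 8 measured oxidase genes was 6.15 in C16, between 5.59 and 5.68 in the other ZL rats and between 5.25 and 5.51 in the ZO rats. This mean includes *Duoxa2*, so it does not show that C16 was higher in the other oxidase genes. The part of these states of C13 and C16 in any single gene was not tested beyond leaving each rat out.

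Of 29214 probe sets, 160 (0.548%) were higher and 144 (0.493%) lower in ZO than in ZL rats at an adjusted p under 0.05 (limma, Benjamini-Hochberg). The median log2 difference was 0.706 for those higher and -0.565 for those lower, while that of all genes was -0.013. The difference was at least 2-fold for 43 of the higher and 15 of the lower probe sets. The 4 rats of one group did not overlap the 4 of the other for 283 of the 304, which were selected by this same comparison. Of all genes, 3.89% had every ZO rat above every ZL rat and 5.21% had every ZO rat below. Of the 304 probe sets, 246 carry 1 gene symbol, 16 carry several and 42 carry none. The count depended on single rats: it was 187 without C13, 115 without C16, 151 without Z11, 141 without Z13 and 128 without Z15, and leaving out C11 raised the lower count to 226. The calls held without each of the 8 rats in turn for 60 of the higher and 29 of the lower probe sets, and without C13 for 99 and 55. When only the 2 placebo groups were fitted, 86 probe sets were higher and 32 lower, and of the 90 called probe sets named here 51 no longer passed. Where a call that held without each rat ended in that 2-group fit, its adjusted p there is given.

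**Figure D2:**
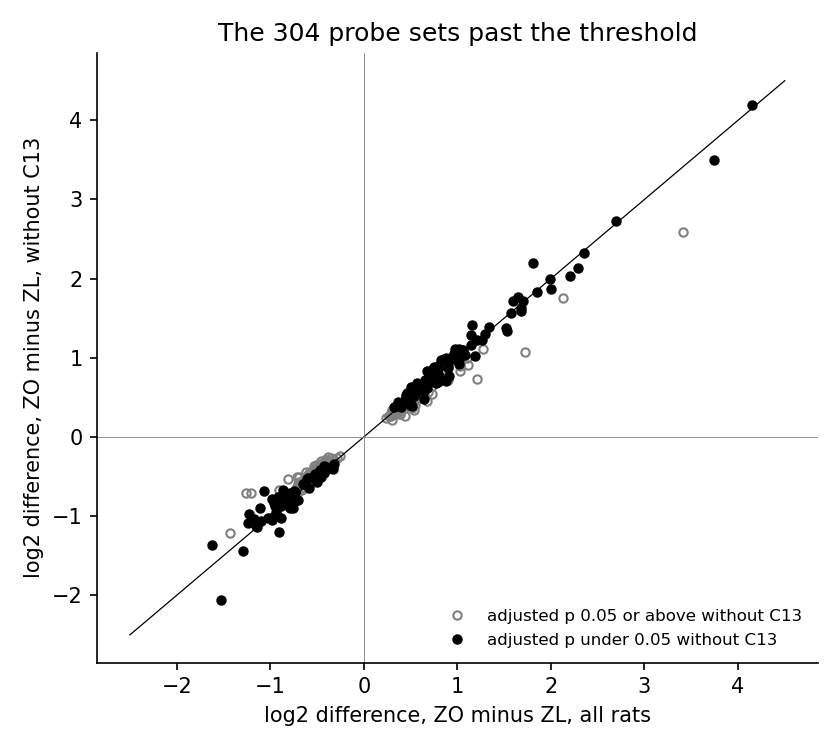
Log2 difference between ZO and ZL placebo rats for each called probe set with all rats (x axis) and without C13 (y axis), with a line of equality. Filled points kept an adjusted p under 0.05 without C13 (154 of 304) and open points did not, and every point kept its sign.

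The largest difference belonged to probe set 10817759, which carries no gene symbol and is given by its number. Its signal was 11.55, 12.10, 12.05 and 11.82 in the ZO rats and 7.10, 7.83, 8.18 and 7.80 in the ZL rats, in the order of the rats given above. All ZO rats lay above all ZL rats by more than 3 log2 units, 17.8-fold in the mean (log2 difference 4.15 ± 0.25 SE, limma, adjusted p = 4.1e-12), and the call held without any 1 rat. At baseline the group means of this probe set were 7.80 in ZO and 7.54 in ZL rats.

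The named gene with the largest difference was *Hsd3b2*, a dehydrogenase of steroid hormone synthesis. It was 8.05, 8.28, 8.71 and 8.11 in the ZO rats and 4.47, 3.81, 5.57 and 4.33 in the ZL rats. The groups were far apart, with *Hsd3b2* 13.4-fold higher in ZO rats (log2 difference 3.74 ± 0.48 SE, adjusted p = 5.41e-05). At baseline the means of *Hsd3b2* were 5.90 in ZO and 5.68 in ZL rats.

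Mitochondrial fatty acid oxidation held more genes higher in ZO rats than any other list examined. Of 22 genes of the pathway, all measured, 14 were higher and 0 lower, against 0.69% and 0.678% of the 17255 genes with a probe set of their own. This list and the others below were drawn up with earlier results of these data known, so their counts are descriptions. The median log2 difference of the 22 was 0.54. The 4 ZO rats lay above the 4 ZL rats for 16 of them, against 3.89% of all genes. The mean log2 signal over the 22 genes was between 9.81 and 9.91 in the ZO rats and between 9.09 and 9.40 in the ZL rats. In bulk tissue, a different share of absorptive cells and a different amount of RNA per cell cannot be told apart. The mean of 13 brush border genes was between 11.81 and 11.88 in the ZO rats. It was 12.21 in C13 and between 11.69 and 11.85 in the other ZL rats.

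*Eci1*, a mitochondrial isomerase needed for the oxidation of unsaturated fatty acids, was 10.77, 10.94, 11.07 and 10.74 in the ZO rats and 8.52, 8.44, 9.07 and 8.09 in the ZL rats. The lowest ZO rat was over 1 log2 unit above the highest ZL rat, and the difference was 5.09-fold (log2 2.35 ± 0.29 SE, adjusted p = 4.86e-05). *Decr1*, the dienoyl-CoA reductase that works beside it, was 9.37, 9.64, 9.57 and 9.38 against 7.95, 7.91, 8.26 and 7.57. *Decr1* did not overlap between the groups either and was 2.97-fold higher (adjusted p = 0.00231).

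Members of the carnitine shuttle were higher at the outer membrane, at the carrier and inside. *Slc25a20*, the carrier that exchanges acylcarnitine for carnitine across the inner membrane, was 9.95, 9.86, 10.01 and 9.80 in the ZO rats and 8.72, 8.92, 8.99 and 8.73 in the ZL rats, 2.09-fold higher in ZO rats (adjusted p = 0.000544). *Cpt2*, which transfers the acyl group back to coenzyme A inside, was 10.14, 9.97, 9.93 and 9.79 against 9.22, 9.24, 9.18 and 9.12, 1.70-fold higher (adjusted p = 0.00527). *Cpt1a*, the transferase of the outer membrane that controls entry, was 11.15, 11.06, 11.10 and 11.04 against 10.55, 10.11, 10.56 and 10.22, 1.66-fold higher (adjusted p = 0.0163). The groups did not overlap for any of these, but the call of *Cpt1a* ended without C13, C16, Z11 or Z15 (adjusted p = 0.0813 without C13).

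Enzymes of the cycle itself were also among the higher genes. The long-chain dehydrogenase gene *Acadl* was 1.59-fold higher (log2 0.67 ± 0.12 SE, adjusted p = 0.00184). *Hadha* and *Hadhb* encode the subunits of the trifunctional protein, which carries out the last steps for long chains, and were 1.49-fold and 1.65-fold higher (adjusted p = 0.0111 and 0.00263). Another probe set of *Hadha*, 10883303, was 1.72-fold higher (adjusted p = 0.00022). *Acad11*, *Acadvl*, *Acaa2*, *Eci2*, *Etfdh* and *Crat* were also higher, with log2 differences between 0.37 and 0.98. Of the members that did not pass, the medium-chain dehydrogenase gene *Acadm* had a log2 difference of 0.22 ± 0.10 SE (adjusted p = 0.375) and the hydratase gene *Echs1* one of -0.34 ± 0.12 SE (adjusted p = 0.216). The calls of *Eci1*, *Decr1*, *Slc25a20*, *Cpt2*, *Acadl*, *Acad11*, *Hadha* and *Hadhb*, 8 of the 14, held without each rat in turn. The calls of *Acadvl* (adjusted p up to 0.144), *Acaa2* (up to 0.166), *Eci2* (up to 0.116), *Etfdh* (up to 0.113) and *Crat* (up to 0.137) ended without C16, Z11, Z13 or Z15, and some of them without other rats, but held without C13. Without C13 the pathway had 14 genes called, 13 of them among those named here (0.504% of all genes were then higher and 0.354% lower), and without Z11, Z15, C16 or Z13 it had 8, 8, 8 and 9. In the 2-group fit 10 were higher.

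Peroxisomal oxidation had 7 of its 16 measured genes (of 22 listed) higher and 0 lower, against 0.69% and 0.678% of all genes. The median log2 difference of the 16 was 0.58. *Ech1*, an isomerase of unsaturated acyl chains, was 11.07, 11.25, 11.22 and 11.26 in the ZO rats and 10.13, 10.08, 10.19 and 9.81 in the ZL rats, 2.22-fold higher in ZO rats (adjusted p = 5.41e-05). The spread within each group was small beside the gap between them. *Pex11a*, which drives the division of peroxisomes, was 9.41, 9.62, 9.85 and 9.59 against 8.29, 7.49, 8.50 and 8.07, 2.89-fold higher (adjusted p = 0.000483). *Ehhadh*, the bifunctional enzyme of the peroxisomal cycle, was 11.63, 11.77, 11.81 and 11.63 against 10.48, 10.53, 10.60 and 10.39, 2.31-fold higher (adjusted p = 0.003). For both genes every ZO rat lay above every ZL rat.

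*Abcd3*, which moves acyl chains into the peroxisome, *Cat*, the catalase that removes the peroxide formed there, and *Pxmp4*, a protein of the peroxisomal membrane, were 1.66-fold, 1.52-fold and 1.87-fold higher (adjusted p = 0.0012, 0.00438 and 0.000553). *Hacl1*, a lyase of branched-chain breakdown, was 1.81-fold higher (adjusted p = 0.0125), and this call ended without C16 or Z15 (adjusted p up to 0.0664). *Hsd17b4*, the other bifunctional enzyme, lay just outside the threshold (log2 difference 0.69 ± 0.18 SE, adjusted p = 0.0518) although its groups did not overlap. *Acox2*, *Phyh* and *Amacr*, which also serve bile acid or branched-chain substrates, had log2 differences of -0.13, -0.10 and -0.23, none past the threshold. The other 6 called members kept their calls without each rat, and that of *Cat* ended in the 2-group fit (adjusted p = 0.0649).

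**Figure D3:**
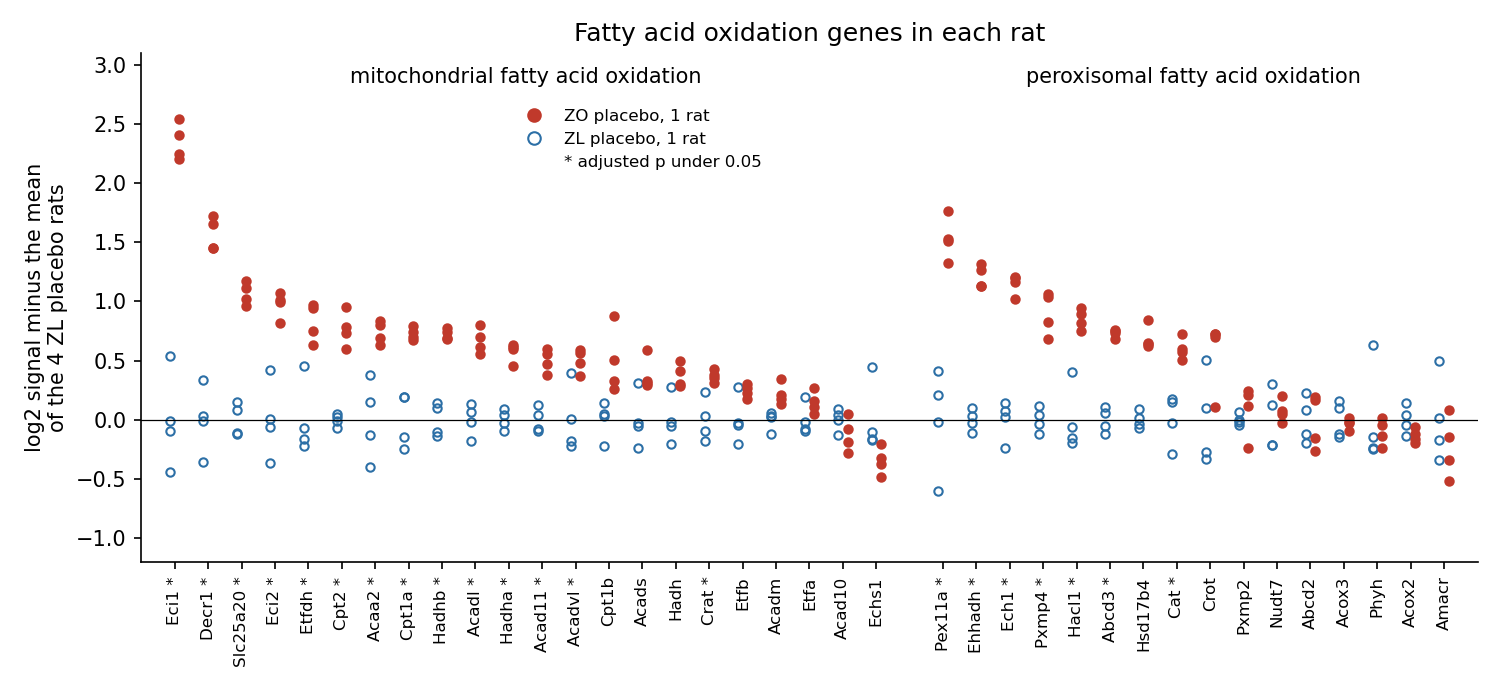
Log2 signal of each rat minus the mean of the 4 ZL placebo rats (y axis) for the measured genes of mitochondrial (22) and peroxisomal (16) fatty acid oxidation (x axis), with ZO rats filled, ZL rats open and an asterisk at genes with an adjusted p under 0.05. The ZO rats lie above the ZL rats for most genes on the left of each block, by 2.35 in the mean for *Eci1* and 1.53 for *Pex11a*, and mix with them on the right.

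The promoters of the genes of the fatty acid uptake, mitochondrial oxidation, peroxisomal oxidation, thioesterase and PPAR lists were searched for the letters AGGTCA repeated after 1 base of any kind, the direct repeat that PPAR and its partner RXR are known to bind, on both strands and with at most 2 mismatches. RefSeq promoters of the GRCr8 assembly, from 250 bases before to 50 after the start of a gene, were at hand for 22 of the 27 genes of these lists called higher, and 4 of them (18.2%) held a match. The share was 3.77% of all 33469 promoters, and 19.6% of the 51 promoters at hand for genes of the same lists that were not called higher. The 4 promoters are shown because they belong to genes described above, with the match in capitals: *Acadvl* (chr10:55236656-55236955, minus strand, 1 mismatch), *Cat* (chr3:110329477-110329776, minus strand, 2 mismatches), *Crat* (chr3:34087050-34087349, minus strand, 2 mismatches) and *Slc25a20* (chr8:118243323-118243622, plus strand, 2 mismatches).
Acadvl: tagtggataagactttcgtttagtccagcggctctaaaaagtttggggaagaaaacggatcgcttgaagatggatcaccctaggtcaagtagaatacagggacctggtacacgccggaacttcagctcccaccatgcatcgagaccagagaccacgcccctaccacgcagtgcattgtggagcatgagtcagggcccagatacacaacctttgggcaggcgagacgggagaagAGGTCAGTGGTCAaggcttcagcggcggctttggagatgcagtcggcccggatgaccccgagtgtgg
Cat: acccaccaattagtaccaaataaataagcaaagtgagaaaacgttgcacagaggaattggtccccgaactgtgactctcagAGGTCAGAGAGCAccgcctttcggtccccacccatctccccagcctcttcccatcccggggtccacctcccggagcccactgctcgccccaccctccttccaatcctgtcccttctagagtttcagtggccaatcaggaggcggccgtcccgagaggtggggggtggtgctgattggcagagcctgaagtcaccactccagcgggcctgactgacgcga
Crat: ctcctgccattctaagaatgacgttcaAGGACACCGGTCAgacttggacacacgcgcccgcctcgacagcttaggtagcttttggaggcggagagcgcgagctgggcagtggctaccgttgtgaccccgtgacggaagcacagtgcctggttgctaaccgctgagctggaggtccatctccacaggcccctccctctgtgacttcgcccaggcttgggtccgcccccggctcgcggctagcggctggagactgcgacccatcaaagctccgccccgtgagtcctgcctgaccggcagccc
Slc25a20: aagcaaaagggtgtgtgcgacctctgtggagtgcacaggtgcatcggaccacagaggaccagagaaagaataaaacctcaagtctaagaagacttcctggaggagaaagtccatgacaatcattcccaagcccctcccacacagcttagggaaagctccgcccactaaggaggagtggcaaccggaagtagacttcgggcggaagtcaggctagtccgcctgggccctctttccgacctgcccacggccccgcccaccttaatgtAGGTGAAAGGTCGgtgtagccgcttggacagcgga
In *Acadvl* the match ended 5 bases before the start of the gene, and in *Slc25a20* it began 15 bases after it. A match of letters is a description and not a binding site, and no binding was measured in these rats.

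*Ppara* itself was higher in ZO rats, at 10.06, 10.02, 10.34 and 10.25 against 9.49, 9.26, 9.65 and 9.06, 1.75-fold (log2 0.80 ± 0.16 SE, adjusted p = 0.00859). *Ppard*, encoding the related receptor PPAR delta, was lower, at 10.17, 10.43, 10.27 and 10.52 against 10.67, 10.90, 10.75 and 10.89 (log2 -0.46 ± 0.11 SE, adjusted p = 0.0255). The rats did not overlap for either gene. *Pparg*, encoding the receptor best known from fat cells, had a log2 difference of 0.08 ± 0.18 SE (adjusted p = 0.924). The call of *Ppara* ended without C16 or Z15 (adjusted p up to 0.0586) and in the 2-group fit (adjusted p = 0.0502), and that of *Ppard* without C13, C16, Z11, Z13 or Z15 (adjusted p = 0.0972 without C13).

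Of 26 measured genes listed as PPAR receptors and targets outside oxidation (of 30 listed), 3 were higher and 1 lower, against 0.69% and 0.678% of all genes. The median log2 difference of the 26 was 0.16. *Angptl4*, a secreted inhibitor of lipoprotein lipase, was 9.77, 9.83, 9.98 and 9.33 in the ZO rats and 7.37, 7.75, 8.41 and 7.41 in the ZL rats, 3.98-fold higher in ZO rats (adjusted p = 0.00407). *Vnn1*, a pantetheinase of the cell surface, was 11.48, 11.62, 11.65 and 11.49 against 9.69, 9.57, 10.50 and 10.38, 2.88-fold higher (adjusted p = 0.000174). Both genes separated the groups without overlap and kept their calls without each rat. Other well known targets did not pass. *Plin2*, a lipid droplet coat protein, had a log2 difference of 1.28 ± 0.40 SE (adjusted p = 0.136), *Pdk4*, which restrains glucose oxidation, one of 0.57 ± 0.29 SE (adjusted p = 0.46), and *Cyp4a1*, a fatty acid hydroxylase, one of 0.35 ± 0.34 SE (adjusted p = 0.78). For these 3 genes C13 was the highest lean rat, at 10.08, 11.16 and 8.61.

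Thioesterases release free fatty acids from coenzyme A, and 2 of 8 measured (of 12 listed) were higher, against 0.69% of all genes. *Acot1*, the cytosolic form, was 5.69, 6.68, 6.76 and 6.15 in the ZO rats and 3.61, 3.71, 3.62 and 3.54 in the ZL rats. *Acot2*, the mitochondrial form, was 9.63, 9.75, 9.64 and 9.50 against 8.10, 8.41, 7.99 and 7.65. Neither gene overlapped between the groups, and *Acot1* and *Acot2* were 6.49-fold and 3.01-fold higher (adjusted p = 0.00198 and 0.00104). Probe set 10885862, which carries 2 symbols, was 3.61-fold higher (adjusted p = 0.000174). *Acot1* and *Acot2* are close in sequence, and how far each probe set reads the other transcript was not tested. The ZL values of *Acot1* lie below the array medians, as do the means of the lower group for *Hsd3b2*, *Chrna2*, *Spmip11* and *Acad11*. The files give no detection call, so the size of such a fold is uncertain.

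Genes of uptake and of fat absorption gave 1 call in each list, against 1.37% of all genes in either direction. Of 12 measured genes of uptake and activation, 1 was called, *Dbi*, the acyl-CoA-binding protein (1.68-fold higher, adjusted p = 0.00527, and 0.068 in the 2-group fit). *Slc27a2*, an acyl-CoA synthetase of very long chains, was 8.30, 9.68, 7.99 and 8.96 in the ZO rats and 6.22, 6.60, 8.09 and 6.17 in the ZL rats, so the groups overlapped through C15 (log2 difference 1.96 ± 0.58 SE, adjusted p = 0.103). Of 16 measured genes of fat absorption, *Apoc2*, a cofactor of lipoprotein lipase, was higher (1.62-fold, adjusted p = 0.0439), and its call ended without C16, C11, C15, Z11, Z13 or Z15 (adjusted p up to 0.164). *Apob* and *Mttp*, which build the chylomicron, had log2 differences of 0.08 and 0.09 (adjusted p = 0.674 and 0.805). Of 19 measured genes of cholesterol synthesis and uptake 0 passed, with differences between -0.23 and 0.46.

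Fatty acid synthesis was split between its enzymes, with 1 of 15 measured genes higher and 2 lower, against 0.69% and 0.678% of all genes. *Acacb*, which makes malonyl-CoA, an inhibitor of fatty acid entry at the mitochondrion, was 6.49, 6.54, 6.83 and 6.76 in the ZO rats and 5.25, 5.37, 5.58 and 5.23 in the ZL rats, 2.46-fold higher in ZO rats (adjusted p = 0.0111). *Fads1*, a desaturase that makes long polyunsaturated fatty acids, was 6.23, 6.09, 6.28 and 6.32 against 7.35, 7.10, 7.28 and 7.09, 1.96-fold lower (adjusted p = 0.0135). *Scd2*, a desaturase that makes monounsaturated fatty acids, was 6.66, 7.04, 6.46 and 6.73 against 8.20, 7.55, 8.10 and 8.20, 2.44-fold lower (adjusted p = 0.0444). None of the 3 overlapped between the groups. The call of *Acacb* ended without C16 or Z15 (adjusted p up to 0.0532), that of *Fads1* without Z13 (adjusted p = 0.0589), and that of *Scd2* without C16, C11, C15 or any ZO rat (adjusted p up to 0.166).

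Several other lipid enzymes were among the higher genes, of which *Aig1*, *Hsdl2* and *Ephx2* are named after their values were seen. *Nceh1*, a cholesteryl ester hydrolase, was 7.89, 7.38, 7.86 and 7.80 in the ZO rats and 5.88, 5.90, 6.54 and 5.89 in the ZL rats, 3.20-fold higher in ZO rats (adjusted p = 0.00421). *Abhd3*, a phospholipase, was 8.68, 9.17, 8.97 and 8.95 against 7.07, 8.32, 7.01 and 6.16, 3.49-fold higher (adjusted p = 0.0228), a call that ended without C16, Z13 or Z15 (adjusted p up to 0.131). *Aig1*, a hydrolase of fatty acid esters, was 2.11-fold higher (adjusted p = 4.86e-05). None of these overlapped between the groups. *Hsdl2*, a peroxisomal protein of the dehydrogenase family, was 2.03-fold higher (adjusted p = 0.000388), and *Ephx2*, the soluble epoxide hydrolase, 2.22-fold higher (adjusted p = 0.00596), a call that ended without C16 (adjusted p = 0.0511).

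**Figure D4:**
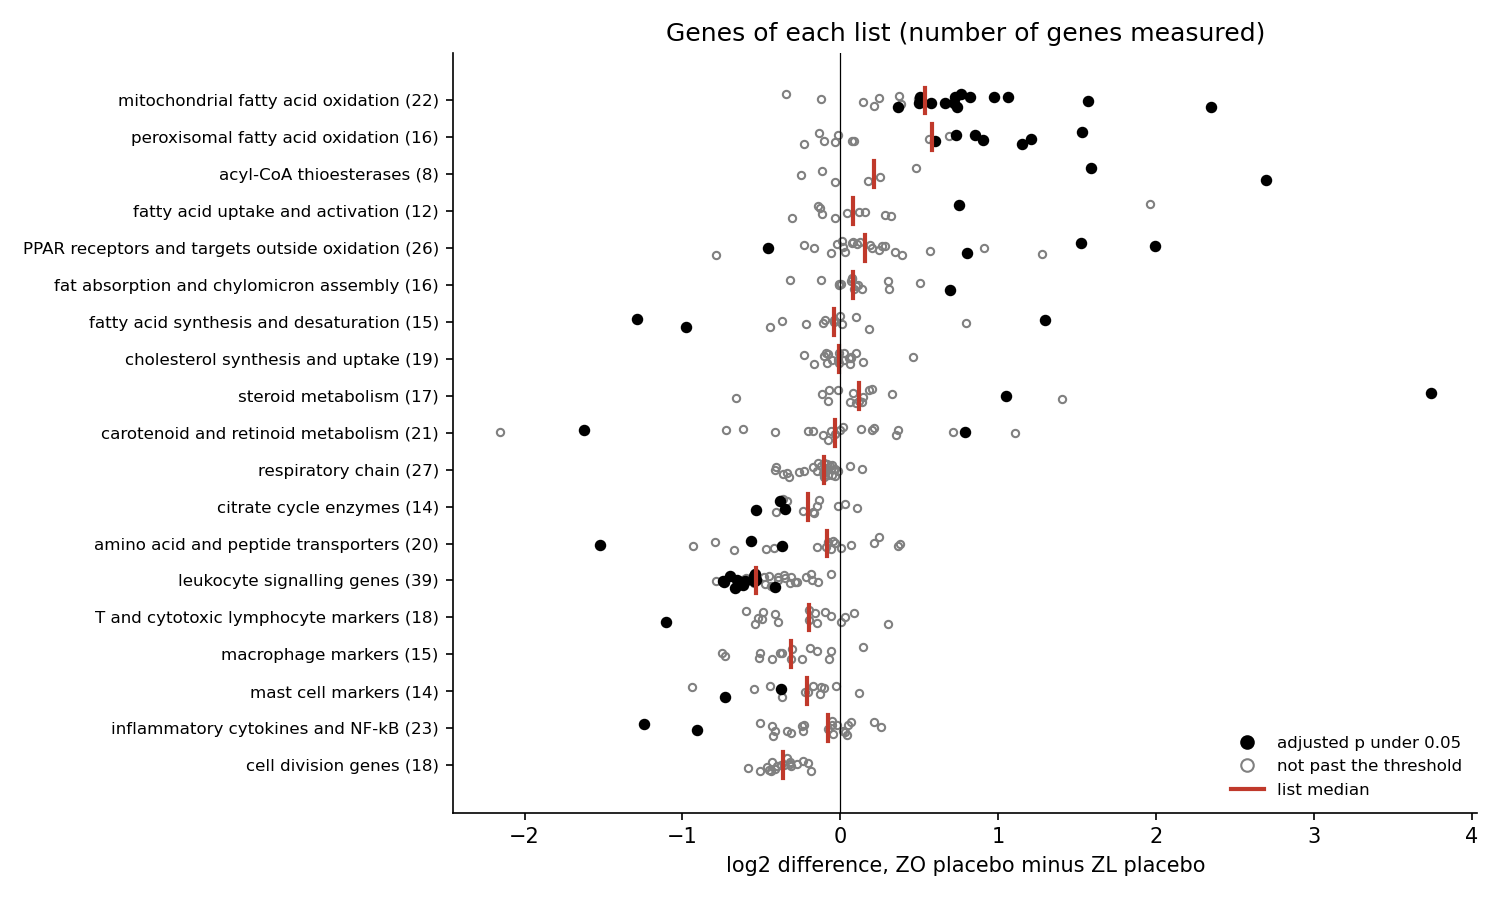
Log2 difference between ZO and ZL placebo rats (x axis) for each measured gene of 19 lists (y axis, number measured in parentheses), filled where the adjusted p is under 0.05, with a bar at the list median. Called genes lie to the right for mitochondrial and peroxisomal oxidation and thioesterases, with list medians of 0.54, 0.58 and 0.21, and to the left for leukocyte signalling and citrate cycle genes, whose lists were chosen after the values were seen.

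Carotenoid, retinoid and steroid genes held some of the larger single differences. *Bco2*, a mitochondrial enzyme that cleaves carotenoids, was 7.99, 7.27, 7.07 and 7.52 in the ZO rats and 8.64, 9.86, 8.56 and 9.29 in the ZL rats. It was 3.09-fold lower in ZO rats with no overlap (log2 -1.63 ± 0.23 SE, adjusted p = 0.00022), and without C13 the difference was -1.37 (adjusted p = 0.00139), while in the 2-group fit it did not pass (adjusted p = 0.0681). *Retsat*, which saturates retinol, was 1.73-fold higher (adjusted p = 0.00607), a call that ended without C16 (adjusted p = 0.0511). The other 19 of the 21 measured genes of the list did not pass. Among them *Scarb1*, a receptor for lipoproteins and carotenoids, was 6.98, 7.16, 7.34 and 7.70 against 8.21, 11.10, 8.40 and 10.10 (adjusted p = 0.0584, and 0.266 without C13), with C13 and C16 the highest rats. Of 17 measured steroid genes 2 were higher, against 0.69% of all genes. These were *Hsd3b2* and the lipid droplet dehydrogenase gene *Hsd17b13* (2.07-fold, adjusted p = 0.0108). The call of *Hsd17b13* ended without C16, Z13 or Z15 (adjusted p up to 0.0566).

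Amino acid genes differed in both directions. *Asns*, which makes asparagine and is known to be induced when amino acids are short, was 9.45, 9.46, 9.21 and 9.35 in the ZO rats and 7.82, 7.69, 7.88 and 7.26 in the ZL rats, 3.26-fold higher in ZO rats (adjusted p = 0.00245). *Psph*, the last enzyme of serine synthesis, was 7.02, 7.08, 6.91 and 6.96 against 6.36, 6.08, 6.26 and 6.15, 1.72-fold higher (adjusted p = 0.031). *Prodh*, which starts the breakdown of proline, was 7.18, 6.82, 6.46 and 7.20 against 8.16, 8.14, 7.92 and 7.85, 2.15-fold lower (adjusted p = 0.00124). The groups did not overlap for any of the 3. *Asns* and *Prodh* kept their calls without each rat, while that of *Psph* ended without C13, C16 or any ZO rat (adjusted p = 0.106 without C13). *Mthfd1l*, a mitochondrial enzyme of folate metabolism, was 1.45-fold lower (adjusted p = 0.0231), and its call ended without C13, C16, C15 or any ZO rat (adjusted p = 0.088 without C13).

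Of 20 measured amino acid and peptide transporters, 3 were lower and 0 higher, against 0.678% and 0.69% of all genes. Their median log2 difference was -0.09. *Slc7a15*, an amino acid transporter, was 9.51, 9.16, 9.17 and 9.76 in the ZO rats and 11.35, 9.31, 11.21 and 11.82 in the ZL rats, so only C13 fell into the ZO range. The difference was -1.52 ± 0.37 SE with C13 (adjusted p = 0.0379) and -2.06 without it (adjusted p = 0.000783), and the call ended without C16, C11, C15, Z11, Z13 or Z15 (adjusted p up to 0.19). *Slc3a2*, the chain that anchors several transporters in the membrane, and *Slc7a7*, its partner for basic amino acids, had log2 differences of -0.37 and -0.56 (adjusted p = 0.0348 and 0.0413). Both calls ended without C13, C16 or any ZO rat (adjusted p = 0.168 and 0.162 without C13), and without C13 *Slc7a15* was the only transporter called. In the 2-group fit *Slc7a15*, *Slc3a2* and *Slc7a7* did not pass (adjusted p = 0.239, 0.161 and 0.0681), while 1 other transporter of the list was lower.

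Genes that handle peroxides differed in both directions. Of 23 measured glutathione and NRF2 genes 1 was lower and 1 higher, against 1.37% of all genes in either direction, and 0 passed in the 2-group fit. *Gpx2*, the glutathione peroxidase of the gut epithelium, was lower, at 10.70, 10.26, 10.22 and 10.24 against 11.15, 11.14, 11.17 and 11.87 (1.97-fold, adjusted p = 0.00596), and this call ended without C16 (adjusted p = 0.0539). *Gstm1*, a glutathione transferase, was 1.60-fold higher (adjusted p = 0.0425), a call that ended without C13, C16, Z11, Z13 or Z15 (adjusted p = 0.224 without C13). *Gstt3*, another transferase outside the list, was 1.95-fold lower (adjusted p = 0.00407) and kept its call without each rat but not in the 2-group fit (adjusted p = 0.0595). Of 23 prostaglandin and leukotriene genes, 2 were higher and 0 lower, against 0.69% and 0.678% of all genes, although 18 had a negative difference. *Hpgd*, which inactivates prostaglandins, was 12.32, 12.36, 12.33 and 12.20 against 11.90, 11.54, 12.03 and 11.78 (1.41-fold, adjusted p = 0.00171). *Ptger3*, a receptor for prostaglandin E, was 6.66, 6.36, 6.64 and 6.39 against 5.46, 4.83, 5.76 and 5.24 (2.28-fold, adjusted p = 0.00496). For both, all ZO rats lay above all ZL rats and the calls held without each rat, but that of *Hpgd* ended in the 2-group fit (adjusted p = 0.0989).

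Called cytokine and leukocyte genes were lower in ZO rats. *Il18*, a cytokine made by epithelium and myeloid cells, was 6.46, 5.44, 5.43 and 5.78 in the ZO rats and 6.86, 7.48, 6.70 and 7.05 in the ZL rats, 2.37-fold lower in ZO rats (adjusted p = 0.0045). *Mmp9*, a matrix protease of leukocytes, was 6.70, 6.78, 6.91 and 7.10 against 7.65, 8.47, 7.54 and 8.52, 2.26-fold lower (adjusted p = 0.00179). The killer cell receptor genes *Klrb1b* and *Kir3dl1* were 2.15-fold and 1.94-fold lower (adjusted p = 0.00109 and 0.00496). The groups were separate for these 4 genes and the calls held without each rat, but all 4 ended in the 2-group fit (adjusted p = 0.0833, 0.0819, 0.103 and 0.117). *Il33*, an alarm cytokine of the barrier, was 1.87-fold lower (adjusted p = 0.0336), and its call ended without C13, C16 or any ZO rat (adjusted p = 0.19 without C13). The mast cell protease genes *Cma1* and *Mcpt10* were 1.30-fold and 1.66-fold lower (adjusted p = 0.0216 and 0.0233). Their calls ended without C13, C16, Z11, Z13 or Z15 (adjusted p = 0.0813 and 0.108 without C13). Both group means lay below the array medians for *Kir3dl1* (3.67 in ZO and 4.62 in ZL rats) and *Cma1* (3.32 and 3.70). The ZO mean of *Mcpt10* (4.55) did too, so the size of these folds is uncertain.

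By list, 2 of 23 inflammatory cytokine and NF-kB genes, 1 of 18 T and cytotoxic lymphocyte markers and 2 of 14 mast cell markers were lower, against 0.678% of all genes, and 0 were higher. In the 2-group fit each of these lists had 0 lower, and without C13 the mast cell markers had 0. Of 15 macrophage markers 0 passed, and 14 had a negative difference, with a median of -0.31 against -0.34 at baseline. Among them *Cd68* had a log2 difference of -0.51 ± 0.27 SE (adjusted p = 0.485) and *Csf1r* one of -0.73 ± 0.32 SE (adjusted p = 0.37). The mean over the macrophage markers was between 6.40 and 6.77 in the ZO rats and between 6.47 and 7.12 in the ZL rats, of which C11 was the lowest.

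A set of 39 measured signalling genes of leukocytes, chosen after the values were seen and therefore only a description, had 14 lower and all 39 negative. Of all genes 0.678% were lower. The median log2 difference of the 39 was -0.54 on placebo and -0.22 at baseline. Without C13 the median on placebo was -0.44, and 4 were called. The count was 1 without C16, 2 without Z15, 6 without Z11, 6 without Z13 and 7 without Z16. *Fgr*, a kinase of myeloid cells, was 7.03, 6.82, 6.78 and 6.83 against 7.41, 7.73, 7.44 and 7.82, 1.67-fold lower (adjusted p = 0.00022), and its call held without each rat. The other 13 called were *Rac2*, *Dock2*, *Fermt3*, *Itgb7*, *Selplg*, *Ncf1*, *Ikzf3*, *Pik3cd*, *Parvg*, *Cyth4*, *Arhgap25*, *Samsn1* and *Sla2*, with log2 differences between -0.74 and -0.41. Of the 14, *Fgr* and *Sla2* kept their calls without C13, the others having an adjusted p between 0.0691 and 0.22 there, and *Fgr* and *Selplg* in the 2-group fit. Smooth muscle genes, which mark the wall below the mucosa, had a mean between 6.35 and 6.79 in the ZO rats and between 6.34 and 7.12 in the ZL rats, highest in C15 and C16, and the part of tissue depth in the leukocyte genes was not tested.

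Genes downstream of oxidation gave no call in the higher direction, against 0.69% of all genes. Of 27 measured respiratory chain genes 0 passed. With 1.37% of all genes called in either direction, 0 among 27 says little. Their median log2 difference was -0.10, and 0.01 without C13, whose list mean was 11.09 against values between 10.51 and 10.68 in the other 7 rats. Of 14 measured citrate cycle genes, a list chosen after the values were seen, 3 were lower, against 0.678% of all genes. These were *Cs*, the citrate synthase (log2 -0.53, adjusted p = 0.0109), *Idh3a* (-0.35, adjusted p = 0.0264) and *Sucla2* (-0.38, adjusted p = 0.0392). *Cs* was 11.27, 11.25, 11.03 and 11.23 in the ZO rats and 11.45, 12.22, 11.42 and 11.82 in the ZL rats, of which C13 was the highest. Without C13 none of the 3 was called (adjusted p = 0.0537, 0.158 and 0.207). The call of *Cs* ended without C13, C16 or Z15, that of *Idh3a* without C13, C16, Z11, Z13 or Z15, and that of *Sucla2* without C13, C16 or any ZO rat.

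Among the remaining genes with large differences, *Chrna2*, a subunit of the nicotinic acetylcholine receptor, was 6.70, 6.60, 6.73 and 5.74 in the ZO rats and 4.30, 3.70, 4.36 and 4.26 in the ZL rats, 4.88-fold higher in ZO rats (adjusted p = 0.000167). *Cmpk2*, a mitochondrial nucleotide kinase that interferon is known to induce, was 9.69, 9.13, 9.42 and 9.05 against 7.40, 8.05, 7.72 and 7.54, 3.13-fold higher (adjusted p = 0.00179). Both separated the groups and held without each rat. Of 20 measured interferon-stimulated genes 0 passed, against 1.37% of all genes in either direction, with a median log2 difference of 0.28. *Bpnt1*, a phosphatase of sulfur metabolism, was 10.15, 10.13, 9.94 and 10.01 against 10.67, 12.25, 10.68 and 10.88, so that C13 was far above the rest, and it was 2.09-fold lower (adjusted p = 0.00565, 0.00768 without C13 and 0.226 in the 2-group fit). *Klf9*, a transcription factor that glucocorticoids induce, was 2.04-fold lower (adjusted p = 0.00821), a call that ended without C16 or Z11 (adjusted p up to 0.0626).

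Among the other genes of the larger differences, *Spmip11* was 5.11, 5.52, 5.72 and 5.23 against 4.03, 3.45, 3.74 and 3.64, 3.21-fold higher with no overlap (adjusted p = 0.000397). The rest were lower. *Samhd1*, which breaks down deoxynucleotides, was 1.89-fold lower (adjusted p = 0.00272), and *Rgs1*, a brake on G protein signalling in lymphocytes, was 1.97-fold lower (adjusted p = 0.00298). *Mpzl2*, an adhesion protein of epithelium, and *Slc46a3*, a transporter of the lysosome, were 1.92-fold and 2.23-fold lower (adjusted p = 0.00527 and 0.000492). *Olah*, a thioesterase that releases medium-chain fatty acids, was 1.87-fold lower (adjusted p = 0.0194). *Olah* was 3.62, 3.23, 3.30 and 3.05 against 4.56, 3.32, 4.38 and 4.55, with C13 inside the ZO range, and its call ended without C16, C11, C15, Z13, Z15 or Z16 (adjusted p up to 0.108). The others kept their calls without each rat, but those of *Samhd1* and *Rgs1* ended in the 2-group fit (adjusted p = 0.122 and 0.0942). Both group means of *Olah* (3.30 in ZO and 4.20 in ZL rats) and the ZO mean of *Rgs1* (4.56) lay below the array medians, so their folds are uncertain.

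Some of the larger differences lost their call without C13, and without other rats as well. *Best2*, a chloride channel of goblet cells, was 8.32, 6.50, 6.87 and 6.51 in the ZO rats and 5.33, 3.83, 5.26 and 5.28 in the ZL rats, 4.36-fold higher in ZO rats (adjusted p = 0.0246, and 0.136 without C13). *Spink1*, a trypsin inhibitor, was 3.29-fold higher (adjusted p = 0.0193, and 0.0781 without C13), and *St6gal1*, a sialyltransferase, 2.32-fold higher (adjusted p = 0.044, and 0.216 without C13). In each of these C13 was the lowest rat. *Inf2*, a formin of the actin skeleton, was 2.39-fold lower (adjusted p = 0.0425, and 0.171 without C13), and *Cftr*, the chloride channel of crypts, 1.64-fold lower (adjusted p = 0.0453, and 0.237 without C13). Each of these 5 calls also ended without C16, Z11 or Z15. All but that of *Best2* ended without Z13, and those of *Inf2* and *Cftr* without Z16.

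Cell division genes had 0 called members among 18 measured (limma), against 1.37% of all genes in either direction. All 18 had a negative difference, between -0.58 and -0.18 on the log2 scale, with a median of -0.36. Their mean signal was between 7.18 and 7.26 in the ZO rats and between 7.32 and 7.83 in the ZL rats. At baseline the median difference of the same genes was 0.42. The ZO rats lay below the ZL rats without overlap for 9 of the 18, against 5.21% of all genes.

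At baseline, 0 probe sets (0%) differed between the genotypes at an adjusted p under 0.05 (limma, 3352 at an unadjusted p under 0.05). Of the 160 probe sets higher on placebo, 140 had a positive difference at baseline, against 52.8% of all probe sets, with a median of 0.213. Of the 144 lower on placebo, 101 had a negative one, against 47.2% of all, with a median of -0.121. No rat is shared between the times. *Asns* and *Nceh1* had baseline differences of 1.22 and 1.08, against 1.70 and 1.68 on placebo. *Acot1* had -0.01 at baseline, *Hsd3b2* 0.22, *Bco2* 0.10 and *Il18* 0.26.

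The change in the genotype difference was tested directly, as the difference on placebo minus that at baseline. Probe set 10817759 was the only one that passed (0.00342% of 29214), with a change of 3.89 log2 units (limma, adjusted p = 1.81e-07), and 2487 had an unadjusted p under 0.05. Without Z11 2 probe sets passed upward and 3 downward, and without C15 2 and 4. *Hsd3b2* and *Bco2* had changes of 3.52 and -1.73 (adjusted p = 0.0605 and 0.0605). *Eci1*, *Acot1* and *Angptl4* had changes of 1.57, 2.71 and 1.41 (adjusted p = 0.215, 0.194 and 0.469). For these genes a call on placebo and none at baseline does not show that the difference grew.

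**Figure D5:**
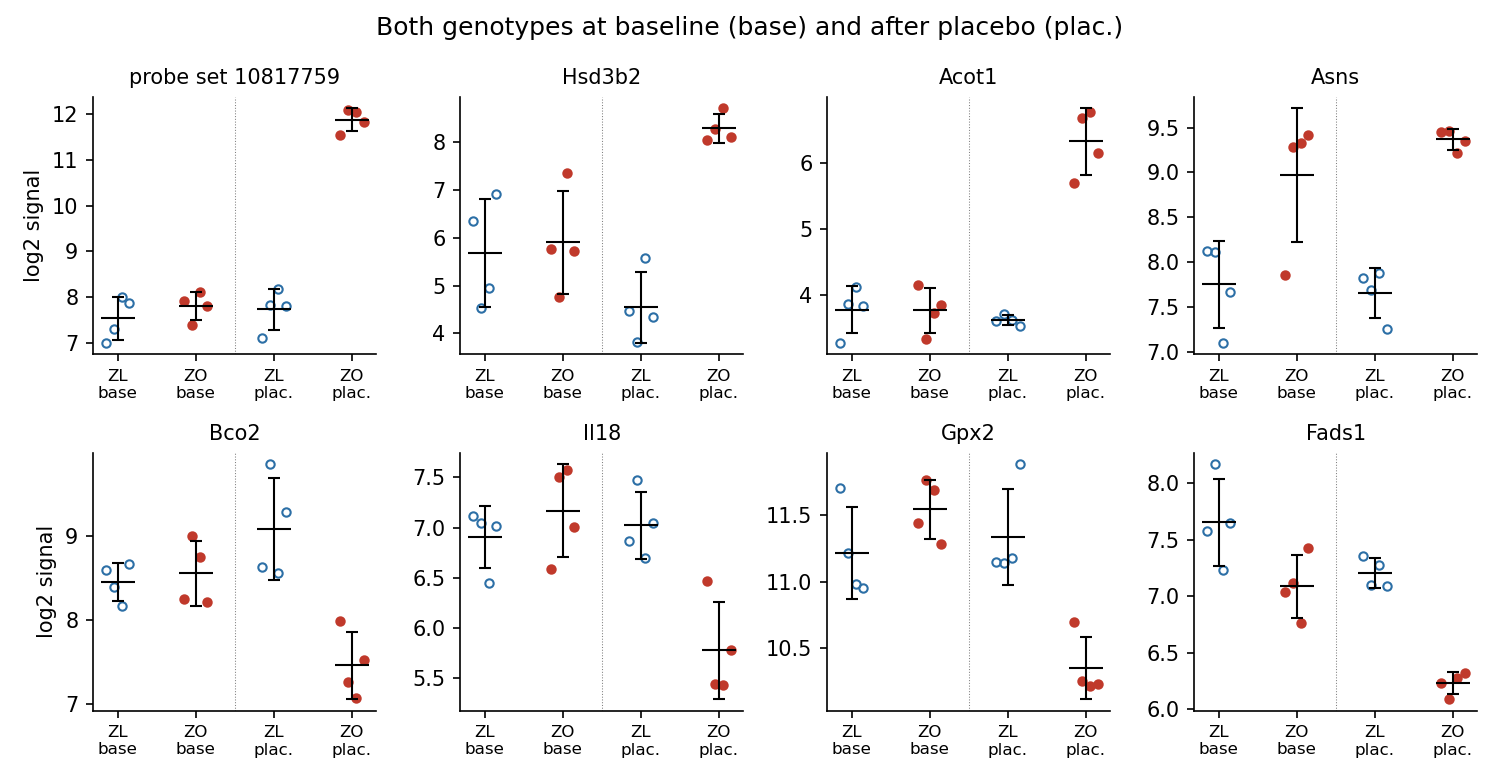
Log2 signal (y axis) of probe set 10817759 and 7 genes in the 4 groups of 4 rats (x axis), ZL open and ZO filled, with the mean and SD as bars. Probe set 10817759 lies between 7.54 and 7.80 in the mean in 3 groups and at 11.88 in ZO placebo rats, whereas *Asns* and *Fads1* differ in the mean between genotypes at both times (1.22 and -0.57 at baseline).

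The leptin receptor gene is read only by probe set 10870289, which the annotation pairs with 2 symbols, *Lepr* among them. Its signal was 4.92, 4.91, 4.81 and 4.82 in the ZO rats and 4.78, 4.31, 4.85 and 4.85 in the ZL rats (log2 difference 0.16 ± 0.09 SE, adjusted p = 0.506). The groups overlapped, and C13 was the lowest rat. The fa allele is a change of sequence, so this level does not check the genotype. Of 12 measured genes of leptin receptor signalling 0 passed, against 1.37% of all genes in either direction. A negative difference was found for 11, among them *Socs1* at -0.75 and *Cish* at -0.76, inhibitors that cytokine receptors induce (adjusted p = 0.281 and 0.129).

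Among the 200 measured genes nearest to *Lepr* in the gene order of chromosome 5, 100 on each side, 5 were called (2.5%, against 1.37% of all genes and 1.468% of those on the chromosome). *Cpt2*, *Pgm1*, an enzyme of glycogen metabolism, and *Dab1*, an adaptor protein of neurons, were higher, by 0.77, 0.66 and 1.16 on the log2 scale. *Echdc2*, a mitochondrial relative of the hydratases, and *Dnajc6*, a cofactor of vesicle uncoating, had differences of -0.88 and -0.57. These 5 genes are named after their values were seen, and all lie within the nearest 50 genes on either side. The call of *Dnajc6* ended without C13, C16, Z11, Z13 or Z15 (adjusted p = 0.105 without C13), that of *Echdc2* without C16 or Z13, that of *Pgm1* without C16, C11, Z11, Z13 or Z15 and that of *Dab1* without C16, C11, C15 or any ZO rat. Of the 200 genes 0 were called at baseline.

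Of 11 measured genes picked from those the study discusses, 0 were called between the genotypes on placebo (limma), against 1.37% of all genes. *Ednrb* is not among the 11. The study reports a rise of *Adamdec1*, *Ednrb* and *Ptgs1* in ZO rats on placebo against ZO rats at baseline. It measured RNA by quantitative PCR and protein by western blot and immunofluorescence. In ZL rats it reports no effect of placebo on these proteins. These are other comparisons and other measures than the one made here. *Adamdec1*, a protease of macrophages and dendritic cells, was 9.79, 9.37, 9.62 and 10.23 in the ZO rats and 9.16, 8.96, 10.42 and 10.25 in the ZL rats (log2 difference 0.05 ± 0.61 SE, adjusted p = 0.988). *Ptgs1*, the constitutive cyclooxygenase, was 7.60, 7.19, 7.15 and 7.66 against 7.33, 7.66, 8.08 and 8.80 (-0.57 ± 0.32 SE, adjusted p = 0.527). The rats of the groups overlapped for both. *Alox5ap*, which starts leukotriene synthesis, was 7.36, 7.63, 7.37 and 7.47 against 7.68, 7.89, 7.94 and 9.22, and *Nfkb1*, a subunit of NF-kB, was 7.72, 7.79, 7.78 and 7.86 against 8.00, 8.05, 8.04 and 8.02. These did not overlap, with log2 differences of -0.72 ± 0.30 SE and -0.24 ± 0.08 SE (adjusted p = 0.329 and 0.193). The other 7, *Rgs16*, *Per1*, *Slc7a11*, *Fkbp5*, *Nfkbia*, *Adgre1* and *Cd40*, had differences between -0.52 and 0.38. For *Adgre1* and *Cd40* the study also marks a difference from ZL placebo rats by quantitative PCR, and describes both as raised in obese rats. On the arrays they had log2 differences of -0.52 ± 0.31 SE and -0.10 ± 0.14 SE (limma, adjusted p = 0.555 and 0.866), with overlapping groups. Both group means of *Cd40* (4.18 in ZO and 4.28 in ZL rats) lay below the array medians.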

How the data were processed

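RNA of intestinal mucosa from 32 male rats was hybridised to Affymetrix Rat Gene 1.1 ST arrays, 1 rat per array, and the submitters' processing notes name Affymetrix Expression Console. The authors deposited log2 RMA values in which most decimal points were lost, so the deposited values are treated as a score until the point is restored. A point was placed after 2 digits where the value begins with 10 to 13 and after 1 digit otherwise. This raised the lowest correlation between arrays from 0.5636 to 0.9785, and of the 63652 values read as 10 or more, 8 would have been closer to the remaining arrays as a value starting with 1. Groups were taken from the labels, and 0 columns were left unmapped. An array gives no read depth, and the number of rats limits the precision.

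The difference between ZO and ZL placebo rats was fitted with limma 3.58.1 in R 4.3.3 (files read with data.table, version 1.17.8) as 5 group means over all 32 arrays, with Benjamini-Hochberg adjustment over 29214 probe sets and a threshold of 0.05. The p-values rest on the spread between rats within these groups. In the probiotic group that spread includes any difference between the probiotics given. Of the probe sets, 18661 carry 1 gene symbol and stand for 17255 genes, 945 carry several and 9608 none, and some genes are not analysed here. Named are, among called probe sets of 1 symbol, the top 20 genes in each direction by log2 difference, list genes that passed with up to 4 more members of a list, *Lepr*, 11 genes picked from those the study discusses and the gut segment markers of C13, and genes named outside this rule are marked in the text. Of the 54 gene lists and 2 added ones, members and lists were chosen with earlier results of these data known. Alternatives left out each placebo rat, used fewer groups, a block for the rat number, array weights, quantile normalization, centring, a trend in the prior variance, a filter on low values, 1 probe set per gene, a minimum fold and other readings of ambiguous values. The fit was tested on simulated data.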

Additional observations from a re-analysis of the deposited data

Results flagged for a closer look

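Single rats lay far from the other 3 of their group for 18 of 214 groups of 4 examined, a test that marks about 5% of groups by chance. C13 was low in the gut segment genes *Fabp6* (8.71, median of the other 3 ZL rats 13.30), *Slc10a2* (7.01 against 11.39), *Slc51a*, a bile acid exporter subunit (11.60 against 12.36), and *Pyy* (5.17 against 9.07). These 4 genes were examined because C13 was known to differ in them, so they do not count against that share. C13 was also low for *Best2* (3.83 against 5.28), *Chrna2* (3.70 against 4.30), *Scd2* (7.55 against 8.20), *Olah* (3.32 against 4.55) and probe set 10870289 (4.31 against 4.85), and high for *Bpnt1* (12.25 against 10.68).

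C16 was high for *Gpx2* (11.87 against 11.15) and *Alox5ap* (9.22 against 7.89), C15 for *Nceh1* (6.54 against 5.89), and C11 was low for *Mthfd1l* (5.16 against 5.62). Among the ZO rats, Z16 was low for *Chrna2* (5.74 against 6.70) and high for *Cma1* (3.58 against 3.24), Z11 was high for *Gpx2* (10.70 against 10.24), and Z15 was low for *Cs* (11.03 against 11.25).

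The genotype difference of probe set 10817759 was larger on placebo than at baseline by 3.89 log2 units in the test of that difference (limma, adjusted p = 1.81e-07).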

How the results depend on the processing

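Leaving out each placebo rat in turn gave from 70 to 174 probe sets higher and from 45 to 226 lower, from 8 to 14 mitochondrial oxidation genes higher, from 6 to 7 peroxisomal ones, and from 1 to 17 leukocyte signalling genes lower. With only the 2 placebo groups 86 were higher and 32 lower, 2 leukocyte signalling genes among them, and with C13 also left out 101 and 47. The 4 groups without probiotic gave 65 higher and 38 lower. Array weights gave 343 and 330, and a minimum fold of 1.5 gave 105 and 68. The share of called genes among the neighbours of *Lepr* was 5% for 50 genes on each side. The test of the genotype difference against baseline gave 3 probe sets when only the 4 groups without probiotic were used. With 1 probe set per gene it gave 1 higher and 3 lower. Quantile normalization (146 and 153), centring (123 and 108), a trend in the prior variance (152 and 133), a filter on low values (189 and 169), 1 probe set per gene (146 and 148) and ambiguous values placed at 1 (160 and 144) stayed within 1.5 times the counts given. None of the 90 named called genes changed sign under those of these settings in which it was fitted. The low-value filter and 1 probe set per gene held 89 of them. Of the 90, 51 no longer passed with only the 2 placebo groups, 45 when C13 was also left out, 30 without C13 and 48 without C16. Without other single rats from 8 to 44 no longer passed, with centring 12 and with quantile normalization 7. The cause of these changes was not tested.

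The rat numbers do not pair the groups: deviations of same-numbered rats correlated between -0.023 and 0.085, those of the other 12 pairs between -0.18 and 0.123, and 0 of 4 ZO rats correlated best with the ZL rat of their number. With the rat number as a block in the 2 groups 36 probe sets were higher and 9 lower, and 68 of the 90 did not pass, and with the last digit of the number as a block over all arrays 150 and 150.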

Other observations

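Of the 16 called probe sets that carry several symbols, the 4 with the lowest p are given by number. Besides 10885862, described with the thioesterases, probe set 10920820 was 9.51, 9.73, 9.95 and 9.76 against 8.66, 8.62, 8.89 and 8.69 in ZO and ZL rats (limma, log2 difference 1.02 ± 0.14 SE, adjusted p = 0.000174). Probe set 10914201 was 9.70, 9.72, 9.82 and 9.73 against 9.03, 9.01, 9.24 and 9.07 (adjusted p = 0.000544). Probe set 10728440 was lower in ZO rats, at 6.64, 6.44, 6.60 and 6.85 against 7.64, 7.77, 7.59 and 8.07 (adjusted p = 0.000324). The groups did not overlap in these 3, and the calls held without each rat.

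Tuft cell markers, which define the chemosensory cells of the gut lining, had 0 of 8 past the threshold, against 1.37% of all genes. Of the 8, 7 were negative, with a median log2 difference of -0.45, and of -0.80 without C13. Their mean was 7.19 in C16, between 5.46 and 6.32 in the other ZL rats and between 5.85 and 5.90 in the ZO rats. Interferon-stimulated genes were highest in the ZO rat Z11, with a mean of 7.61 against values between 6.52 and 7.22 in the other ZO rats.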
